A study of Mus musculus with 8 samples.

Results

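Transcripts of 37 genes of glucose uptake, glycolysis and the pentose phosphate pathway were followed in leukaemic spleen cells of 4 mice. The acute myeloid leukaemias carried MLL-AF10, a fusion of the histone methyltransferase gene MLL with AF10. Per the labels, they were started by transplanting c-kit-positive bone marrow stem and progenitor cells, immortalised by retroviral transduction, into syngeneic mice of the strain the labels write as CD57BL/6, after a sub-lethal dose of radiation. Flow sorting for the receptor c-kit, also called CD117, divided each spleen into cells with high c-kit (CD117pos) and cells with little or none (CD117neg), and each fraction gave 1 Affymetrix array. There were thus 4 CD117pos and 4 CD117neg arrays, paired within 4 mice, called A to D here in the order of the numbers that end their array titles (CD117POS_948, CD117POS_951, CD117POS_952 and CD117POS_953, each with its CD117NEG partner). Both fractions carried the same fusion gene. The labels state no age, and they do not say if the leukaemias arose from 1 transduction or from several, so p-values measure the spread between these animals.

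Members were the genes of a given list for which the platform's annotation gives a probe set with that gene symbol alone. Of the 37 listed genes, 33 had such a probe set and 32 were tested, each through the probe set that was brightest on average, among 18193 named genes of the series. Gapdh was measured this way by control probe sets only, which were kept out of the test. Gpi1, Eno1, Pfkfb1 and G6pdx were not analysed here. Values are intensities on a linear scale as deposited. Differences are CD117pos minus CD117neg on the log2(intensity + 16) scale, which understates changes of dim genes, and are given ± SE from limma with the mouse as a block. The threshold was a Benjamini-Hochberg adjusted p of 0.05 over all 18193 genes. Intensities of different probe sets are not comparable with each other, so no gene's level is set against another's.

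Glucose enters cells through facilitative transporters and is trapped by hexokinases. Phosphofructokinase commits it to glycolysis, aldolase splits the sugar, and the lower steps, from triose phosphate isomerase to pyruvate kinase, yield ATP and pyruvate. Pyruvate is reduced to lactate and exported by monocarboxylate transporters, or is carried into mitochondria, where pyruvate dehydrogenase, the enzyme that the Pdk kinases inhibit, converts it to acetyl-CoA. The pentose phosphate pathway branches off after hexokinase and supplies NADPH and ribose. Mature neutrophils are known to rely heavily on glycolysis, and NADPH feeds their oxidative burst.

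The CD117pos arrays differed from the CD117neg arrays in glucose and lactate transporters and in particular isoforms of glycolytic enzymes, while most core enzymes did not pass the test. All 3 glucose transporter genes among the members were lower in CD117pos, with Slc2a6 and Slc2a3 showing the largest differences of all members. Among enzymes, Eno3, Aldoc, Pfkp, Aldoa and the regulator Pfkfb4 were lower. The lactate exporter gene Slc16a3 was lower, and the monocarboxylate transporter gene Slc16a1 was the only member that was higher. Of the 32 members, 9 were lower (28.1%) and 1 was higher (3.12%), against 13.8% lower and 8.27% higher among all 18193 genes. Those shares include many dim genes. In a fit of the 9960 genes with a mean intensity of at least 50, 2580 were lower and 1710 higher. Of the 28 members in that fit, 9 were lower and 1 was higher. Over all genes, that fit had more falls and more rises than the main fit, among fewer genes. The members' share of falls thus lay nearer that of all genes there, and their share of rises farther below it. The members' median log2 difference was -0.19, against -0.01 over all genes. It was nearer 0 in some settings: -0.051 with quantile normalisation (0.07 over all genes) and -0.08 after centring (0.10 over all genes). The mean of all probe sets gave -0.09, and leaving out mouse B gave -0.10. It was farther from 0 in others: -0.29 with the filter on mean intensity (-0.04 over all genes) and -0.24 with a pseudocount of 1 (-0.03 over all genes).

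The count of falls was 5 without mouse A and between 7 and 10 without any other mouse, and the count of rises was 3 without mouse B. Counts over all genes moved too. Against 2511 falls with all mice, there were 1207, 2983, 1382 and 1181 without mouse A, B, C and D. Rises over all genes went from 1504 to 421, 2106, 584 and 416. Among calls over all genes, 37.5% were rises without further scaling, 55.4% with quantile normalisation and 49.7% after centring on array medians. In sorted bulk samples, fewer cells of a type and less RNA per cell cannot be told apart.

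**Figure D1:**
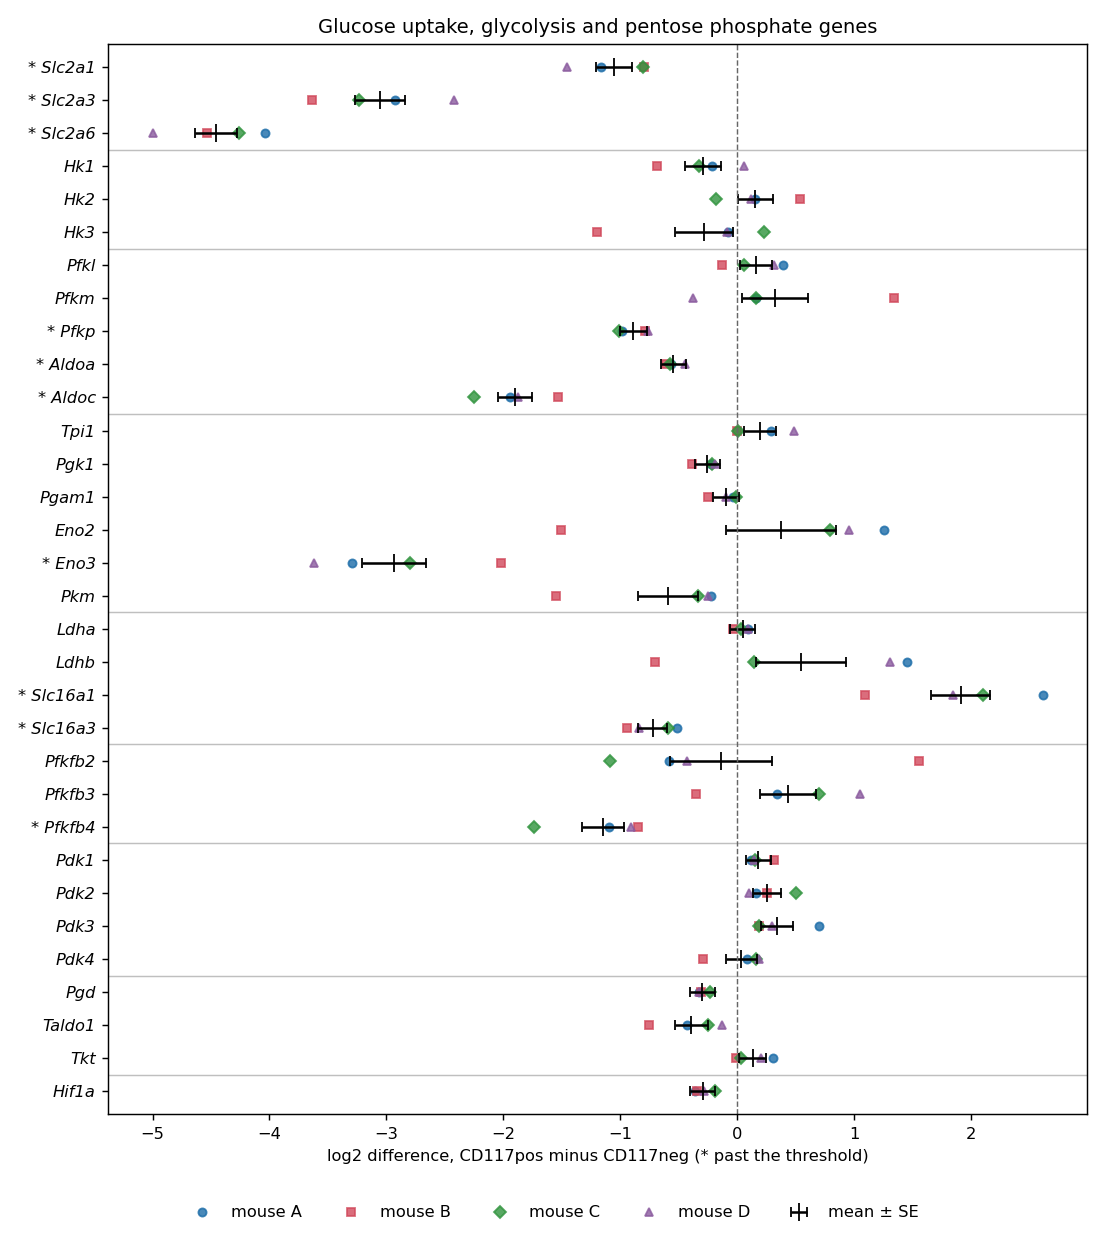
Log2 difference, CD117pos minus CD117neg, of the 32 tested members on the horizontal axis, with 1 symbol per mouse and a black mark for the mean ± SE; lines divide the steps of the pathway, from glucose uptake at the top to Hif1a at the bottom, and asterisks mark adjusted p under 0.05. The 3 glucose transporter genes, Eno3 and Aldoc lie left of 0 in all 4 mice, and Slc16a1 lies right of 0 in all 4, while most core enzymes lie near 0.

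Kit, the gene of the sorted receptor, checks the labels. Its intensity was 754, 741, 599 and 909 in the CD117pos arrays of mice A, B, C and D, against 28.7, 39.2, 15.7 and 30.9 in their CD117neg arrays, and it rose by 4.12 ± 0.14 (adjusted p = 0.000152). All per-array values below follow this order of mice. Array medians lay between 27.5 and 31.1 in CD117pos and between 31.0 and 32.8 in CD117neg. One array stood apart, the CD117pos array of mouse B, whose median correlation with the other CD117pos arrays was 0.929, against 0.987 to 0.988 for those 3 arrays and 0.984 to 0.988 among CD117neg arrays. The ratio of the 3′ to the 5′ control probe set of Gapdh, a measure of RNA integrity, was 5.44 on that array, 2.56 to 2.77 on the other CD117pos arrays and 2.76 to 3.23 on the CD117neg arrays. The deposited table makes no detection calls, so array medians serve here as the mark of a dim probe set.

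Maturation markers moved with the comparison. Of 12 measured markers of monocytes and macrophages, 9 were lower in CD117pos and 0 higher, and their summed intensity was 2207 to 7880 in CD117pos arrays, against 35821 to 45689 in CD117neg arrays. Of 10 late neutrophil markers, 9 were lower and 0 higher, with sums of 14137 to 33371 in CD117pos, against 67669 to 74325 in CD117neg. No listed marker was at the floor of 1 on all arrays. Markers of lymphocytes were dim: 4 of 7 B-cell, 5 of 7 T-cell and 4 of 6 NK-cell genes lay below the array median on every array, and none of these lists had a call. Of 6 megakaryocyte markers 1 was lower, and of 7 mast cell and basophil markers and of 7 stromal and endothelial markers 1 each was lower and 1 each higher. Hba-a1, Hbb-b2, Klf1 and Slc4a1 lay below the array median on all 8 arrays, and the 1 erythroid-list gene that rose was the transferrin receptor gene Tfrc, which dividing cells also use. The part of cell maturity in the differences of the metabolic genes was not tested.

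The glucose transporter genes among the members were lower in CD117pos cells of every mouse. Slc2a3 encodes GLUT3, a transporter of high glucose affinity found in neurons and leukocytes (Entrez gene 20527). It measured 361, 382, 328 and 676 in CD117pos, against 2843, 4925, 3228 and 3684 in CD117neg. The fractions were far apart in all mice, and mouse D had the highest CD117pos value. The log2 difference was -3.05 ± 0.21, or 8.30-fold lower in CD117pos (adjusted p = 0.00119). In a fit over all probe sets, the next brightest of Slc2a3 gave -3.25 ± 0.21 (adjusted p = 0.000967). A further 2 probe sets were dim, with differences of -0.64 and -0.27 that did not pass, and the call ended without probe sets of shared sequence (difference -0.64, adjusted p = 0.0625).

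Slc2a6, which encodes GLUT6, a transporter of leukocytes and spleen with an intracellular location, had the largest difference of all members. Its intensity was 27.1, 3.33, 4.22 and 5.92 in CD117pos, against 692, 432, 371 and 684 in CD117neg. Every CD117pos value lay below the median of its array, with mouse A highest, and every CD117neg value lay far above it. The difference was -4.46 ± 0.18 (adjusted p = 0.000273), and its size depended on the pseudocount, with -6.01 at a pseudocount of 1 and -3.01 at 64. Slc2a1, encoding the widely expressed GLUT1, measured 150.2, 246, 193 and 182 in CD117pos, against 357, 439.9, 349 and 525 in CD117neg. Its fractions did not overlap, and the difference was -1.06 ± 0.15, 2.08-fold lower in CD117pos (adjusted p = 0.00806). In a fit over all probe sets, the 3 of Slc2a1 were each lower past the threshold. The Slc2a1 call ended without mouse A (adjusted p = 0.0525, difference -1.02).

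The difference of Slc2a3 was more negative than that of Slc2a1 by 0.97 to 2.83 in the 4 mice. Slc2a6 is not set against the others, because its difference is scaled by the pseudocount. With 4 mice, the exact two-sided permutation test of such a contrast between isoforms cannot go below p = 0.125. The contrast of Slc2a3 with Slc2a1 reached that value, or 0.229 when adjusted over the 22 isoform pairs compared. All 4 mice went 1 way in 12 of the 22 pairs, and in the others they did not.

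**Figure D2:**
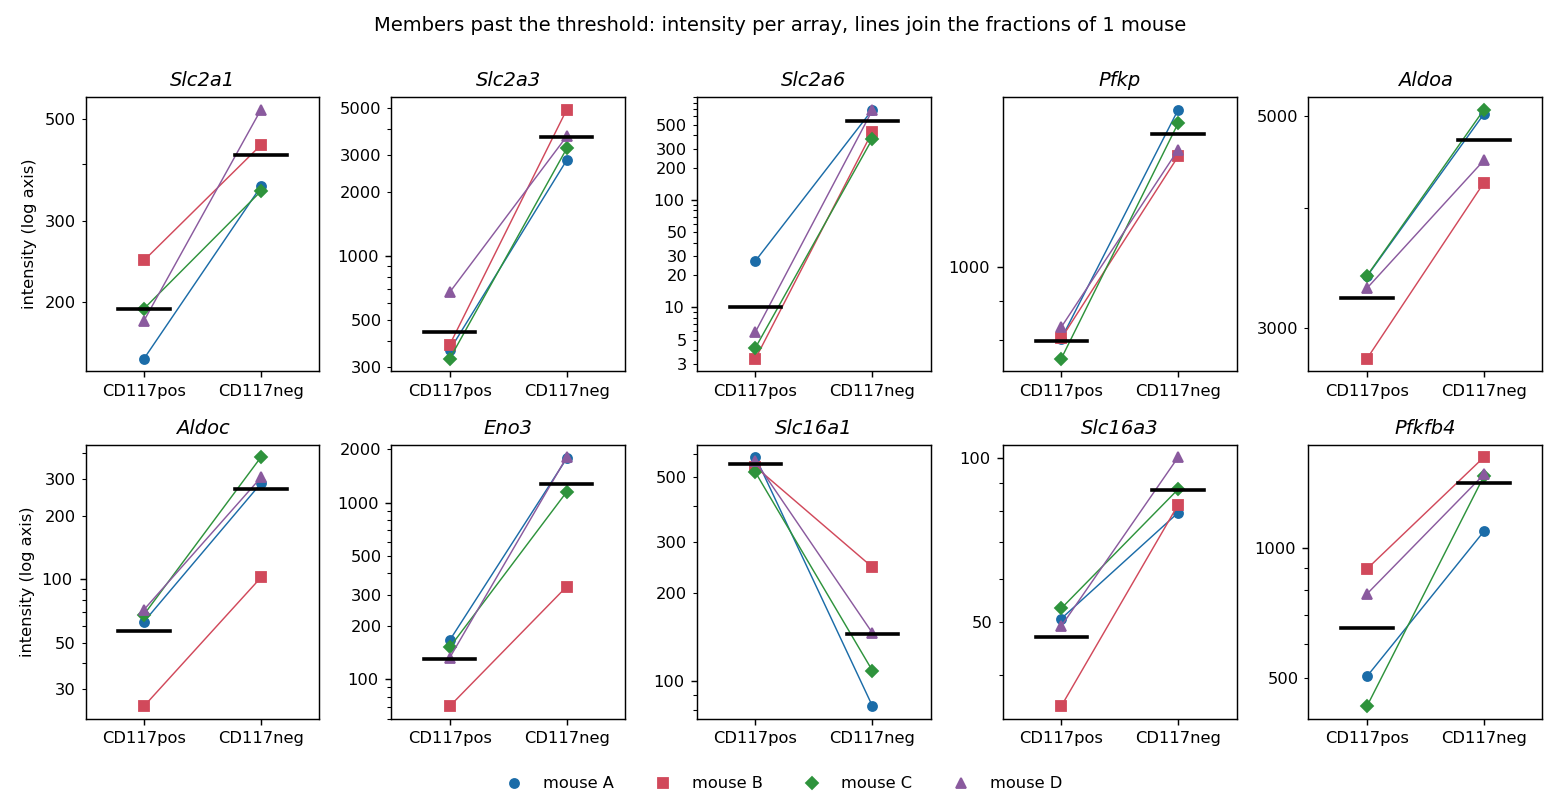
Intensity on a log axis of the 10 members past the threshold, with the CD117pos arrays on the left and the CD117neg arrays on the right of each panel, 1 symbol per mouse, lines joining the fractions of 1 mouse and bars at the means. Slc16a1 is higher in the CD117pos array of every mouse and the other 9 genes are lower, and Aldoc and Eno3 are lowest in both fractions of mouse B.

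At the other end of the pathway, the monocarboxylate transporters moved in opposite directions. Slc16a1 encodes MCT1, which carries lactate and pyruvate in either direction and is common in proliferating cells. It measured 586, 542, 519 and 567 in CD117pos, against 82.2, 246, 109 and 146 in CD117neg. The CD117pos values were close together and all above every CD117neg value, of which mouse B had the highest. The difference was 1.91 ± 0.25, 3.77-fold higher in CD117pos (adjusted p = 0.00609). It passed under all 14 alternative settings, with differences of 0.98 to 2.19 and an adjusted p of at most 0.0430. A second probe set of Slc16a1 lay near the floor of 1 in both fractions and gave 0.04. Slc16a3 encodes MCT4, a lactate exporter of highly glycolytic cells. Its signal was modest, 50.7, 35.0, 52.9 and 49.1 in CD117pos, against 79.5, 82.2, 87.7 and 101 in CD117neg, without overlap. The difference was -0.72 ± 0.13 (adjusted p = 0.0136), a call that ended without mouse A, C or D (adjusted p 0.0524 to 0.0723). Slc16a1 exceeded Slc16a3 in its difference by 2.04 to 3.13 in all 4 mice (exact permutation p = 0.125, the smallest possible, 0.229 adjusted).

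Promoter sequences are shown for these 2 lactate transporter genes, which moved in opposite directions, and for 2 of the glucose transporter genes that fell. Each covers 250 bases before to 50 after the RefSeq start in build GRCm38.p6, and they lie at chr3:104638414-104638713 (plus strand), chr11:120948817-120949116 (plus strand), chr4:119108495-119108794 (plus strand) and chr2:27027949-27028248 (minus strand) in the order shown. Capitals mark matches on either strand to ACGTG, 1 form of the core of the hypoxia response element bound by HIF-1. They include matches within the E-box CACGTG bound by Myc and its relatives. The form of the core that starts with G was not searched for. The sequences read 5′ to 3′ along the gene's strand.
Slc16a1: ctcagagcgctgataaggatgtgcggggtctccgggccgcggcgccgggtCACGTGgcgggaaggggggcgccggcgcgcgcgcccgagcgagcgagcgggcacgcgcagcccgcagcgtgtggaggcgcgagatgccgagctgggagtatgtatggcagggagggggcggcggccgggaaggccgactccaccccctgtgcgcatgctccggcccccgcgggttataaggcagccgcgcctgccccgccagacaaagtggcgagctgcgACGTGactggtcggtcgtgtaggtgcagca
Slc16a3: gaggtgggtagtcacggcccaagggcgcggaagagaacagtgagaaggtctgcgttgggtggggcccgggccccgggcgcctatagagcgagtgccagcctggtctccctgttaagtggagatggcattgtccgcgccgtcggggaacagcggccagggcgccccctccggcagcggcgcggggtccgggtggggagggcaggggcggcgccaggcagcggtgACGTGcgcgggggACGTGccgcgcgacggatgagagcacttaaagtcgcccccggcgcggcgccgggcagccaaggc
Slc2a1: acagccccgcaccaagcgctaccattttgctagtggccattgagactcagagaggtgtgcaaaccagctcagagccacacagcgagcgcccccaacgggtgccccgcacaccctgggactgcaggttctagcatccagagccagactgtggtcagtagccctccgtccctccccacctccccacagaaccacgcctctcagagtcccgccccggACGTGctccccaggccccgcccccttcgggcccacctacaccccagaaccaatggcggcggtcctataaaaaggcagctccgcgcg
Slc2a6: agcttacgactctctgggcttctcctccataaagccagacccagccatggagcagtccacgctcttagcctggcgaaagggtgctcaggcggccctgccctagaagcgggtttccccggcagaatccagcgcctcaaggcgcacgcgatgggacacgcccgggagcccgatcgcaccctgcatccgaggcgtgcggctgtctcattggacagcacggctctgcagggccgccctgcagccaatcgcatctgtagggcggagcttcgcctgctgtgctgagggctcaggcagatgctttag
Slc16a1 held 1 CACGTG, which counts as overlapping matches of ACGTG on both strands, and 1 further ACGTG. Slc16a3 held 2 matches of ACGTG, Slc2a1 held 1 and Slc2a6 held 0, other forms of the core not being counted. Promoters were listed for 36 of the 37 genes, Slc2a3 being the exception. Of the 56 promoters of these genes, 24 held ACGTG (42.9%) and 7 held CACGTG (12.5%), against 19.6% and 7.15% of all 32851 promoters of the same length. Among the 9 called members with a promoter, Slc16a1, Slc16a3, Slc2a1, Aldoa and Aldoc had a match in at least 1 promoter, and Slc2a6, Eno3, Pfkp and Pfkfb4 had none in theirs. That is 5 of 9 called genes, beside 18 of the 31 tested members with a promoter that had a match in at least 1. Genes that rose and genes that fell were thus both among those with a match, and a match is a description of the letters only.

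None of the hexokinase genes, which encode the first enzyme, passed the test. Hk2, the inducible hexokinase of many tumours, measured 1891, 3261, 2106 and 2859 in CD117pos, against 1694, 2245, 2392 and 2635 in CD117neg. Its ranges overlapped, with a difference of 0.16 ± 0.15 and a 95% interval of -0.21 to 0.53. Hk1, the housekeeping form, averaged 1131 ± 169.6 in CD117pos and 1382 ± 144 in CD117neg (SD, n = 4 each), a difference of -0.29 ± 0.15. Hk3, the form of myeloid cells, measured 3102, 1682, 3984 and 3521 in CD117pos, against 3267, 3881, 3393 and 3737 in CD117neg. The array of mouse B was far below the other CD117pos arrays, and the remaining values overlapped. The difference was -0.28 ± 0.25 (adjusted p = 0.495), with an interval of -0.90 to 0.34.

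Of the 3 phosphofructokinase genes, the platelet-type Pfkp was lower in CD117pos. Pfkp measured 804, 804, 757 and 833 in CD117pos, against 1608, 1397, 1544 and 1425 in CD117neg, with a narrow spread in both fractions and no overlap. Its difference was -0.89 ± 0.11, 1.85-fold lower in CD117pos (adjusted p = 0.00570), and it passed under all 14 settings. A second probe set of Pfkp gave -1.48 ± 0.19 (adjusted p = 0.00595) and the third, near the array median, 0.13. Pfkl, the liver type, did not pass, at 1024 ± 270.3 in CD117pos and 899.6 ± 182 in CD117neg (difference 0.16 ± 0.14). The muscle type Pfkm measured 57.1, 165, 66.1 and 43.1 in CD117pos, against 49.3, 55.7, 57.3 and 60.9 in CD117neg, and did not pass (difference 0.32 ± 0.28). The CD117pos array of mouse B was well above its other arrays, and without mouse B the difference of Pfkm was -0.018. The difference of Pfkl exceeded that of Pfkp by 0.66 to 1.38 in all 4 mice (exact permutation p = 0.125, 0.229 adjusted).

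Both aldolase genes were lower in CD117pos. Aldoa, the main form in blood cells, measured 3397, 2785, 3400.1 and 3300.0 in CD117pos, against 5019.7, 4256, 5073 and 4490.2 in CD117neg. The fractions did not overlap, but the fall was modest, -0.55 ± 0.11 or 1.46-fold (adjusted p = 0.0188). Of its 5 probe sets, 3 were lower past the threshold and none higher. The Aldoa call ended under 6 of 13 settings, among them quantile normalisation (-0.36) and centring (-0.43), and without mouse A, C or D (adjusted p 0.0685 to 0.0931).

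Aldoc, the brain-type aldolase, measured 62.9, 24.9, 68.0 and 71.8 in CD117pos, against 287, 102, 383 and 306 in CD117neg. Mouse B was lowest in both fractions, and its CD117neg value still exceeded every CD117pos value. The difference was -1.90 ± 0.15 (adjusted p = 0.00156). A second, dim probe set of Aldoc gave -1.02 ± 0.48 without passing (adjusted p = 0.209), and the Aldoc call ended without probe sets of shared sequence (adjusted p = 0.206). The fall of Aldoc was larger than that of Aldoa by 0.92 to 1.67 in the 4 mice (exact permutation p = 0.125, 0.229 adjusted).

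Among the lower steps of glycolysis, Eno3 was the only gene past the threshold. Eno3 encodes the muscle-type enolase, which makes phosphoenolpyruvate. It measured 167, 70.6, 152 and 133 in CD117pos, against 1778, 335, 1151 and 1809 in CD117neg. Mouse B was again lowest in both fractions, and the fractions did not overlap. The difference was -2.93 ± 0.27, 7.64-fold lower in CD117pos (adjusted p = 0.00245), and it passed under all 14 settings. Eno2, the neuronal enolase, was dim, at 40.9, 2.66, 23.2 and 20.6 in CD117pos, against 7.83, 37.1, 6.60 and 2.86 in CD117neg, with 6 of 8 arrays below their median, and did not pass (0.37 ± 0.47). Its difference was -1.51 in mouse B and 0.79 to 1.26 in the other mice, and without mouse B it passed as higher in CD117pos (adjusted p = 0.00589).

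Of the core enzymes of these steps, Tpi1, Pgam1 and Pgk1 were bright in both fractions and did not pass. Tpi1, triose phosphate isomerase, differed by 0.20 ± 0.13, Pgam1, phosphoglycerate mutase, by -0.10 ± 0.11, and Pgk1, phosphoglycerate kinase, by -0.25 ± 0.11 (adjusted p = 0.368, 0.596 and 0.166). Their 95% intervals were -0.14 to 0.53, -0.37 to 0.18 and -0.52 to 0.02, all within 1 log2 unit, a margin wider than the called fall of Aldoa (-0.55). Further probe sets of Tpi1 gave 0.37 and 0.36 without passing. Through the chosen probe set, Pgk1 was lower in all 4 mice and passed with a pseudocount of 64 or an intensity trend. A further bright probe set of Pgk1 gave -0.10 (adjusted p = 0.630 in a fit over all probe sets). That probe set was higher in CD117pos in mouse D, 6605 against 6345. The remaining one gave -0.27 without passing. The 3′ control probe set of Gapdh, the glyceraldehyde phosphate dehydrogenase, read 6740, 5394, 6830.0 and 6884 in CD117pos, against 7119, 7035, 7335 and 7156 in CD117neg, a mean log2 difference of -0.15 that was not tested.

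Pkm, pyruvate kinase of most tissues, measured 4894, 1761, 4496 and 4576 in CD117pos, against 5699.8, 5194, 5668 and 5451 in CD117neg. Each CD117pos value lay below every CD117neg value, and the array of mouse B lay far below the rest. The difference was -0.59 ± 0.26 and did not pass (adjusted p = 0.170, interval -1.22 to 0.05). In mouse B the difference was -1.55, against -0.33 to -0.22 in the other mice.

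Lactate dehydrogenase subunits did not pass. Ldha, the muscle-type subunit favouring lactate formation, was nearly level at 6159 ± 417 in CD117pos and 5949.8 ± 183 in CD117neg (difference 0.05 ± 0.11, interval -0.21 to 0.31). Ldhb, the heart-type subunit, measured 379.7, 30.3, 383 and 643 in CD117pos, against 129, 59.6, 346 and 249.98 in CD117neg. It was higher in CD117pos in mice A, C and D and lower in mouse B, and the fractions overlapped. The difference was 0.55 ± 0.39 (adjusted p = 0.383). Of its 4 probe sets, 1 passed as higher in CD117pos, with 1.11 ± 0.23 (adjusted p = 0.0233), the differences of the 4 lying between 0.43 and 1.11.

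**Figure D3:**
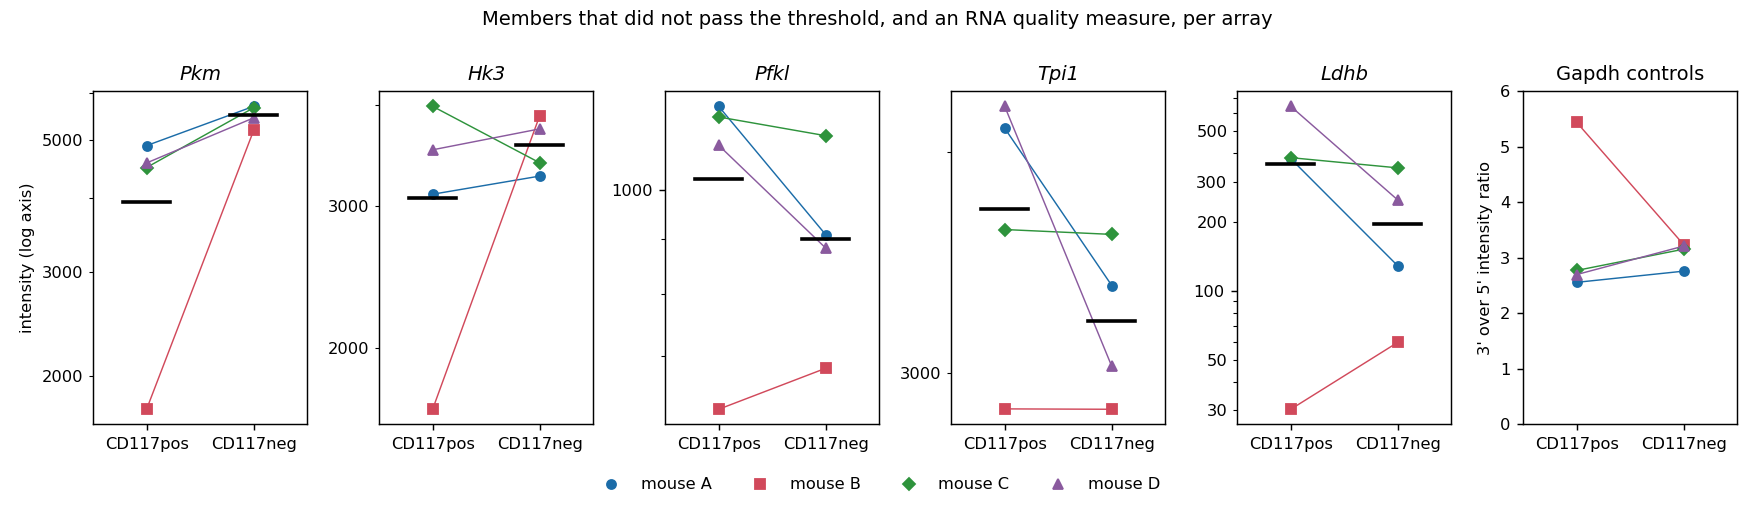
Intensity on log axes of Pkm, Hk3, Pfkl, Tpi1 and Ldhb, which did not pass the threshold, and, in the last panel on a linear axis, the ratio of the 3′ to the 5′ Gapdh control probe set, with CD117pos on the left, CD117neg on the right, 1 symbol per mouse, lines joining the fractions of 1 mouse and bars at the means of the 5 genes. In CD117pos, mouse B is lowest for each of these 5 genes and has the highest 3′ to 5′ ratio, 5.44 against 2.56 to 2.77.

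Mouse B stood apart from the other mice across the members. The median log2 difference of the members was -0.37 in mouse B and -0.19 to -0.11 in the other mice. Over all genes it was -0.041 in mouse B and -0.047 to -0.005 in the others. Of the 32 members, 24 were below 0 in mouse B against 18 in each other mouse. Without that mouse the members' median was -0.10, with 10 falls and 3 rises, beside 2983 falls and 2106 rises over all genes. Its array with the high 3′ to 5′ ratio was the lowest CD117pos array for 21 of the 32 members, against 2 to 5 members for each other mouse. These counts were not made over all genes, so they do not set the members apart. The part of RNA integrity in these values was not tested. Without that 1 array, in a fit without the block, 9 members were lower and 2 higher. The mouse terms of the fit passed for 0 of the 32 members (moderated F-test, lowest adjusted p = 0.399, Aldoc) and for 0% of all genes. At an unadjusted p under 0.05 in the same F-test there were 6 of the 32 members, a larger share than the 7.62% of all genes.

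Enzymes that set fructose-2,6-bisphosphate, the activator of phosphofructokinase, were mixed. Pfkfb4 measured 505, 897, 431 and 784 in CD117pos, against 1096, 1628, 1472 and 1485 in CD117neg. The fractions did not overlap, and the difference was -1.15 ± 0.18, 2.21-fold lower in CD117pos (adjusted p = 0.00979). Without mouse A the call ended (adjusted p = 0.0560, difference -1.16). Pfkfb3, the form with the strongest kinase activity, measured 444, 349, 491 and 589.5 in CD117pos, against 347, 450.4, 295 and 277 in CD117neg. It was higher in CD117pos in 3 mice and lower in mouse B, with a difference of 0.43 ± 0.24 that did not pass (adjusted p = 0.272). Without mouse B Pfkfb3 was higher by 0.70 (adjusted p = 0.0309). The difference of Pfkfb3 exceeded that of Pfkfb4 by 0.49 to 2.44 in all 4 mice (exact permutation p = 0.125, 0.229 adjusted). Pfkfb2 was dim and did not pass (-0.13 ± 0.44), but without mouse B, the only mouse with a rise, it was lower by 0.70 (adjusted p = 0.0296).

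The 4 pyruvate dehydrogenase kinase genes, whose products limit the conversion of pyruvate to acetyl-CoA, did not pass. Pdk1, a target of HIF-1, averaged 1439 ± 247 in CD117pos and 1278 ± 284 in CD117neg, a difference of 0.18 ± 0.11. Pdk3 measured 232, 189, 219 and 202 in CD117pos, against 137, 164, 189.6 and 162 in CD117neg, with small overlap, and differed by 0.34 ± 0.14 (adjusted p = 0.140), passing after quantile normalisation only. Pdk2 and Pdk4 lay below the array median on all 8 arrays, and differed by 0.26 and 0.04.

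In the pentose phosphate pathway no measured gene passed. Pgd, 6-phosphogluconate dehydrogenase of the NADPH-forming branch, measured 6003, 6650.1, 6951 and 6594 in CD117pos, against 7539, 8233, 8153 and 8249 in CD117neg. Its fractions did not overlap, and the difference of -0.30 ± 0.10 missed the threshold (adjusted p = 0.105), while it passed with a pseudocount of 64 or an intensity trend. Taldo1, transaldolase, did not overlap either, 4286 ± 751 in CD117pos and 5554 ± 31.3 in CD117neg, a difference of -0.39 ± 0.14 (adjusted p = 0.115). Tkt, transketolase, which shares the branch that makes ribose from glycolytic sugars, differed by 0.14 ± 0.12 (adjusted p = 0.480). Hif1a, the oxygen-sensitive subunit of HIF-1, measured 1325, 1685, 1706 and 1462 in CD117pos, against 1703, 2141, 1945 and 1782 in CD117neg. The fractions overlapped slightly, and through this probe set Hif1a was lower in CD117pos in all 4 mice by a small amount. The difference was -0.29 ± 0.11, without passing (adjusted p = 0.115), and it passed with a pseudocount of 64. The next brightest probe set of Hif1a gave -0.10 and was higher in CD117pos in mice A and D. Its dimmer probe sets gave 0.23 and -0.16, and none of these passed.

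Around these members, a list of 87 related genes was examined, of which 82 were measured. In CD117pos, 13 were lower (15.9%) and 9 higher (11%), near the shares of 13.8% and 8.27% among all genes, with a median of -0.06. Counts fell to between 3 and 4 rises and between 4 and 6 falls without mouse A, C or D, where calls over all genes fell too. Only Txnip, Adpgk, Pygl, Phkb, Egln3 and Vegfa passed under all 14 settings.

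Of 9 other glucose transporter genes and partners, 2 fell, both arrestin genes. The 7 others, all further genes of the Slc2a family, did not pass. Among them Slc2a8 differed by 0.22 ± 0.11 and Slc2a9 by -0.44 ± 0.20. Txnip, a glucose-induced arrestin that promotes removal of glucose transporters from the surface, measured 1459, 782, 1603 and 1461 in CD117pos, against 3537, 4811, 4037 and 4335 in CD117neg, a difference of -1.69 ± 0.25 (adjusted p = 0.00807). Its relative Arrdc4 differed by -1.67 ± 0.27 (adjusted p = 0.0110, a call that ended without mouse D). Genes for the member transporters and for the arrestins that restrain glucose transporters were thus both lower in CD117pos. Adpgk, an ADP-dependent glucokinase, was the 1 of 10 other glycolytic genes past the threshold, at 569 ± 52.5 in CD117pos and 1173 ± 171 in CD117neg (-1.02 ± 0.15). None of 6 genes of lactate and pyruvate transport passed, among them Bsg, the chaperone of MCT1 and MCT4 (-0.08 ± 0.20).

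Of 9 genes of pyruvate dehydrogenase and its phosphatases, Dlat, its acetyltransferase subunit, rose (0.60 ± 0.13) and the phosphatase gene Pdp2 fell (-0.43 ± 0.11). These calls ended under 4 and 9 of 14 settings. Of 12 other pentose phosphate and NADPH genes, Prps1, which makes phosphoribosyl pyrophosphate from ribose phosphate, rose, at 795, 414, 706 and 821 in CD117pos, against 283, 361, 377 and 308 in CD117neg (0.97 ± 0.23). Its rise was smallest in mouse B, and the call ended under 4 settings. Idh1 and Me2, which make NADPH or NADH outside the pathway, fell, with log2 differences of -0.66 and -0.53, calls that ended under 3 of 13 and 8 of 14 settings.

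Of 19 genes of glycogen and gluconeogenesis, 3 rose and 3 fell (15.8% each, against 8.27% and 13.8% of all genes). Pygl, the liver-type glycogen phosphorylase, measured 1669, 1859, 2340.1 and 1975 in CD117pos, against 4653, 6427, 5062 and 4506 in CD117neg, a difference of -1.39 ± 0.15 (adjusted p = 0.00366). Phkb, a regulatory subunit of phosphorylase kinase, was higher, at 2071 ± 228 in CD117pos and 1027 ± 269 in CD117neg (1.03 ± 0.13). G6pc3, a glucose-6-phosphatase that neutrophils need, was higher by 0.99 ± 0.19, with the smallest rise in mouse B, and that call ended under 3 settings.

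The hypoxia-inducible factor pathway had calls in both directions, 4 rises and 4 falls among 17 genes. That is 23.5% each, against 8.27% higher and 13.8% lower among all genes. Only Vegfa and Egln3 of these passed under all 14 settings. The calls of Adm and Car9, both higher, ended under 9 of 13 and 8 of 14 settings. That of P4ha1, lower, ended under 9 of 14. Vegfa, the vascular growth factor gene induced by HIF-1, measured 305, 626, 309 and 446 in CD117pos, against 115, 102, 93.7 and 89.9 in CD117neg. Every CD117pos value exceeded every CD117neg value, and mouse B was highest; the difference was 1.86 ± 0.22, 3.63-fold (adjusted p = 0.00427). Egln3, a prolyl hydroxylase that marks HIF for destruction and is itself induced by it, was higher by 1.43 ± 0.14 (adjusted p = 0.00262). Ndrg1, a hypoxia- and differentiation-induced gene, was lower, -1.38 ± 0.32 (adjusted p = 0.0323), with -2.53 in mouse B and -1.35 to -0.53 in the others, and its call ended under 4 settings.

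**Figure D4:**
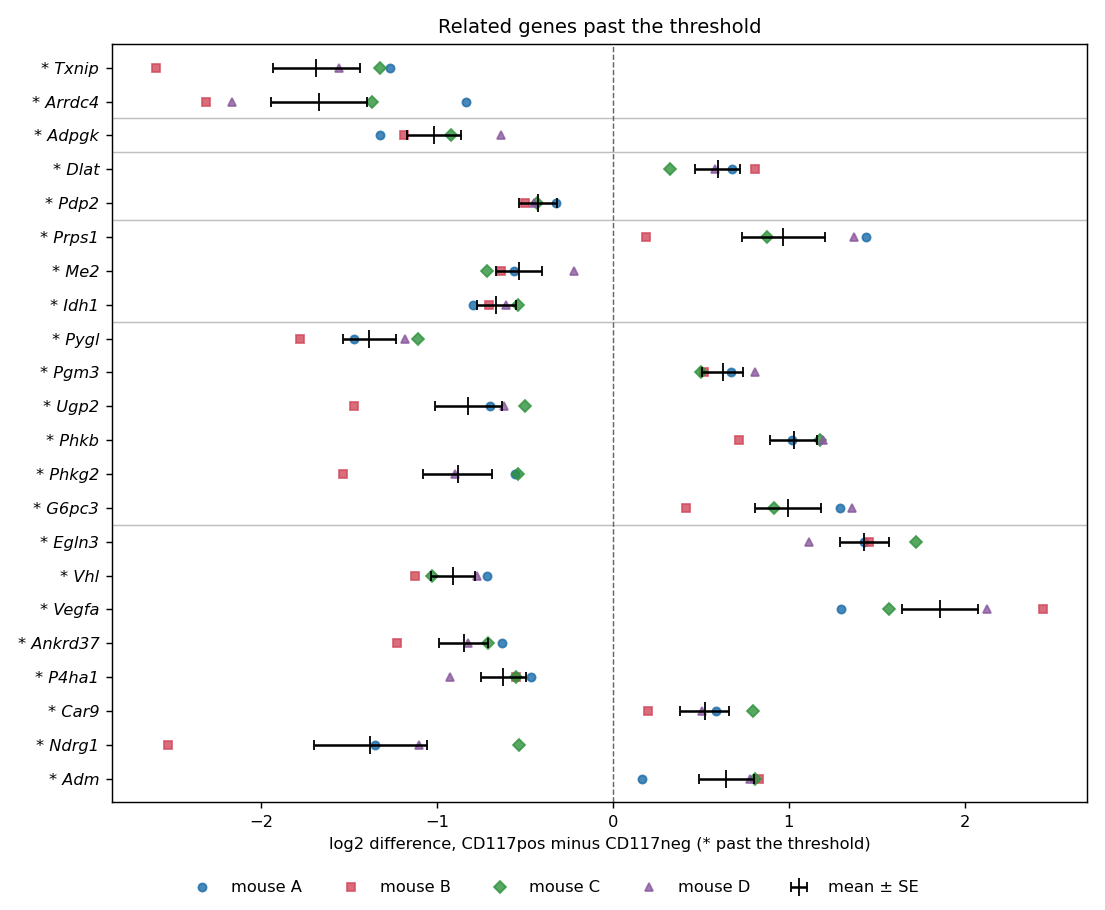
Log2 difference, CD117pos minus CD117neg, on the horizontal axis for the 22 related genes past the threshold, with 1 symbol per mouse and a black mark for the mean ± SE; lines divide the lists, from glucose transporters and partners at the top to the hypoxia-inducible factor pathway at the bottom. Of these genes, 13 lie left of 0 and 9 right of 0, with Txnip and Arrdc4 farthest left and Vegfa farthest right.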

How the data were processed

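Column-purified polyA RNA was amplified over 2 cycles and labelled with biotin, per the labels' protocols. The authors deposited 1 linear intensity per array for each of 45101 probe sets, with a floor of 1. How these were summarised and scaled is not given in these sources, and they were used unchanged. Tests left out 64 control probe sets. The platform annotation gave 34945 probe sets 1 symbol, 932 several and 9160 none. Gene identifiers of 34741 matched the current gene table (GRCm38.p6), with 0 symbols changed. Each gene was represented by its brightest probe set. Limma 3.58.1 in R 4.3.3 (lmFit, eBayes) was fitted to log2(intensity + 16) of 18193 genes on 8 arrays. The fit was tested on simulated data.

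The mouse block follows from the numbers that end the array titles, with 4 mice in the design text. Deviations from the fraction means correlated by 0.21, 0.22, 0.27 and 0.12 within mice A, B, C and D, across genes, which are not independent replicates, and by at most 0.11 between mice. Members and lists were chosen with earlier results of these data known. Named were all members, Kit, up to 3 genes per related list with the largest called difference, and markers. Isoforms were compared by exact permutation of signs over 4 mice. Alternatives changed the block, scaling, pseudocount (1, 64), a filter on mean intensity (50), probe set choice, variance trend and mice included. Arrays have no read depth, and their number limits precision. Figures used matplotlib 3.10.9 in Python 3.11.15.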

Additional observations from a re-analysis of the deposited data

Results flagged for a closer look

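Of 64 checks, 1 for each of 32 members in each fraction of 4 arrays, 8 found a highest or lowest array whose gap to its nearest neighbour exceeded Dixon's 95% critical value as a share of the range on the log2 scale, a limit that chance passes in about 1 in 20 groups. The CD117pos array of mouse B gave 5 of them. There it was the lowest array for Pkm (ratio 0.917, 1761 against 4496 to 4894), Pfkl (0.871, 623 against 1103 to 1199), Aldoc (0.860, 24.9 against 62.9 to 71.8) and Aldoa (0.850, 2785 against 3300.0 to 3400.1). It was the highest for Pfkfb2 (0.952, 109.7 against 23.7 to 26.0). The other 3 were elsewhere. The CD117pos array of mouse A was highest for Slc2a6 (0.843, 27.1 against 3.33 to 5.92). The CD117neg array of mouse A was lowest for Pgd (0.871, 7539 against 8153 to 8249) and for Tkt (0.852, 5872 against 7129 to 7373).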

How the results depend on the processing

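Over 14 alternatives, 4 of the 10 called members (Slc2a6, Pfkp, Eno3 and Slc16a1) and 6 of the 22 called related genes passed under each, and none of these 32 genes changed sign where it had a call. Leaving out each mouse in turn gave 5 to 10 members lower and 1 to 3 higher, and 4 to 16 related genes lower and 3 to 13 higher. Over all genes, these fits gave 1181 to 2983 lower and 416 to 2106 higher. Without the replicate block, where the pairing by mouse was ignored, 9 members were lower and 1 higher, and 12 related genes were lower and 8 higher. Quantile normalisation gave 2 members higher, adding Pdk3, and 15 related genes higher, and moved the members' median to -0.051. Without the CD117pos array of mouse B and the block, 2 members were higher, adding Pfkfb3. A pseudocount of 1 gave 5 related genes higher and 7 lower, and centring gave 8 lower. With a pseudocount of 64, which weighs bright genes more, 12 members were lower, adding Pgk1, Pgd and Hif1a. The filter on mean intensity removed Eno2, Pfkfb2, Pdk2 and Pdk4. Dim probe sets, among them Slc2a6 in CD117pos, carry little information on the size of a difference, and the cause of the other shifts was not tested.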

Other observations

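The dimmer of the 2 probe sets of Pfkfb3 measured 50.6, 617, 47.3 and 50.7 in CD117pos, against 45.4, 42.4, 57.6 and 52.7 in CD117neg, with the CD117pos array of mouse B far above the other 7. The same array was the highest of all 8 for Cd8a, a T-cell marker (32.1, 537, 102 and 74.3 in CD117pos, against 113, 74.2, 94.1 and 104 in CD117neg), for Ms4a2, a mast cell and basophil marker (68.2, 722, 106 and 93.0 in CD117pos, against 65.5, 97.3, 38.7 and 66.0 in CD117neg), and for Pdgfrb, a stromal marker (24.1, 551, 13.7 and 12.3 in CD117pos, against 35.8, 66.9, 17.8 and 28.9 in CD117neg). It was the highest of the 8 arrays for 1 of 7 T-cell markers, 3 of 7 mast cell and basophil markers, among them Mcpt8 (211, 527, 156 and 219 in CD117pos, against 69.8, 126, 35.0 and 57.5 in CD117neg), and 3 of 7 stromal and endothelial markers, among them Col1a2 (46.7, 165, 48.0 and 58.2 in CD117pos, against 80.3, 80.4, 75.3 and 72.8 in CD117neg). Of the same lists, Cd3e at 4.96, Cpa3 at 5.88 and Col1a1 at 20.8 were dim on it. In the other lists, the array was highest for 2 of 7 erythroid, 2 of 6 NK-cell, 1 of 7 B-cell and 1 of 6 megakaryocyte markers. It was highest for 0 of 12 monocyte and macrophage and 0 of 10 late neutrophil markers. The share of all genes highest on this array was not counted. All of the genes named here were picked with their values in view.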
